A study of Mus musculus with 41 samples.

Results

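Fracture calluses of young mice were compared between a late and an early stage of healing, with 5 arrays at 20 days and 5 arrays at 5 days after fracture out of 41 arrays in the series. The mice were 5 months old, came from the NIH aged rodent colony, and had closed fractures of both tibiae held by an intramedullary pin, with buprenorphine for pain. The labels name neither strain nor sex. No mouse gave more than 1 array. The same fracture model was also run in mice of 25 months (called old below), and bones at days 0 and 10 after fracture complete the series. All 10 arrays were chosen by age and day alone, so no measured value entered the choice. Some extracts held the whole bone and others the callus without it, and the labels do not tell them apart by array.

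Long bone fractures heal through overlapping stages. Inflammatory cells, chiefly neutrophils and macrophages, clear the haematoma and release cytokines that recruit skeletal progenitors. A soft callus of cartilage and fibrous tissue then bridges the gap, its chondrocytes enlarge and mineralize, and vessels and osteoclasts invade it. Osteoblasts replace it with woven bone, the hard callus, which osteoclasts and osteoblasts remodel while marrow returns. The comparison asks which genes separate the hard callus of young mice from their early, inflammatory callus.

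Values are log2 intensities, so 1 unit is a 2-fold difference. Changes are day 20 minus day 5, given with the moderated standard error (SE), and a gene was called at an adjusted p under 0.05 by limma with Benjamini-Hochberg adjustment over 19938 genes. Levels of different genes are not comparable on an array, so every comparison is of a gene with itself. In these bulk samples, fewer cells of a type and less RNA per cell cannot be told apart. The number of arrays sets how precise each value can be.

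The 2 days were far apart across the transcriptome. Between day 20 and day 5, 5436 genes were called (27.3% of all genes), 3148 higher (15.8%) and 2288 lower (11.5%) at day 20. The 27.3% is the share beside which each list count below is to be read. Values of the day 20 and day 5 groups did not overlap for 3808 genes (19.1%). A change of at least 2-fold was reached by 822 called genes (4.12%), 395 higher and 427 lower, and one of at least 4-fold by 51 higher and 78 lower. Among the 9969 brighter genes 1663 were higher and 1817 lower, while among the 9969 dimmer genes 1485 were higher and 471 lower. Pearson correlations over all genes were 0.980 to 0.990 between arrays of day 20, 0.982 to 0.994 between arrays of day 5, and 0.953 to 0.968 across the days.

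Some arrays stood apart. Replicate 5 of day 5 lay far above the other 4 day 5 arrays in 404 genes and far below them in 137, against at most 182 and 116 genes for any of the other 9 arrays, and its cartilage and inflammatory transcripts are described below. No label or value checks independently that this array is a day 5 callus. Day 20 replicates 2 and 4 had the lowest red-cell and cell-cycle transcripts of their group. The young day 5 names begin with H, except that of replicate 5, which begins with P, and all are counted here as lettered. The young day 20 samples bear names from a low-number series and the young day 5 samples from a lettered series, so naming series and day cannot be told apart within young mice. With that series as a block, estimated through the other groups, 1550 genes were called, 879 higher (4.41%) and 671 lower (3.37%), and 1534 of the 5436 genes called without it were among them in the same direction. Of the 30 leading genes described next, 26 kept their call.

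The 15 largest rises and the 15 largest falls were taken among called genes whose groups did not overlap, predicted genes left out. They came from several cell types. Higher at day 20 were the osteocyte genes Phex and Dmp1, the Wnt inhibitor Wif1, an osteoclast fusion gene (Dcstamp), red-cell genes (Car1, Rhag), Car2, which red cells and osteoclasts share, a marrow stromal receptor (Lepr), a pre-B-cell gene (Vpreb1), the carboxypeptidase Cpe, the phosphatase Ptprz1, the protease Ctse, Retnla, Slitrk6 and Gdpd2. Lower were chemokines (Cxcl5, Ccl8, Ccl7, Ccl12, Ccl2, Cxcl2), the cytokine Il6, the acute-phase genes Saa3 and Serpina3n, the macrophage genes Ms4a6d and Ms4a4a, the muscle-forming genes Myh3, Myog and Mymk, and the joint lubricant Prg4. Adjusted p values of these 30 lay between 6.0e-13 and 0.0015.

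**Figure D1:**
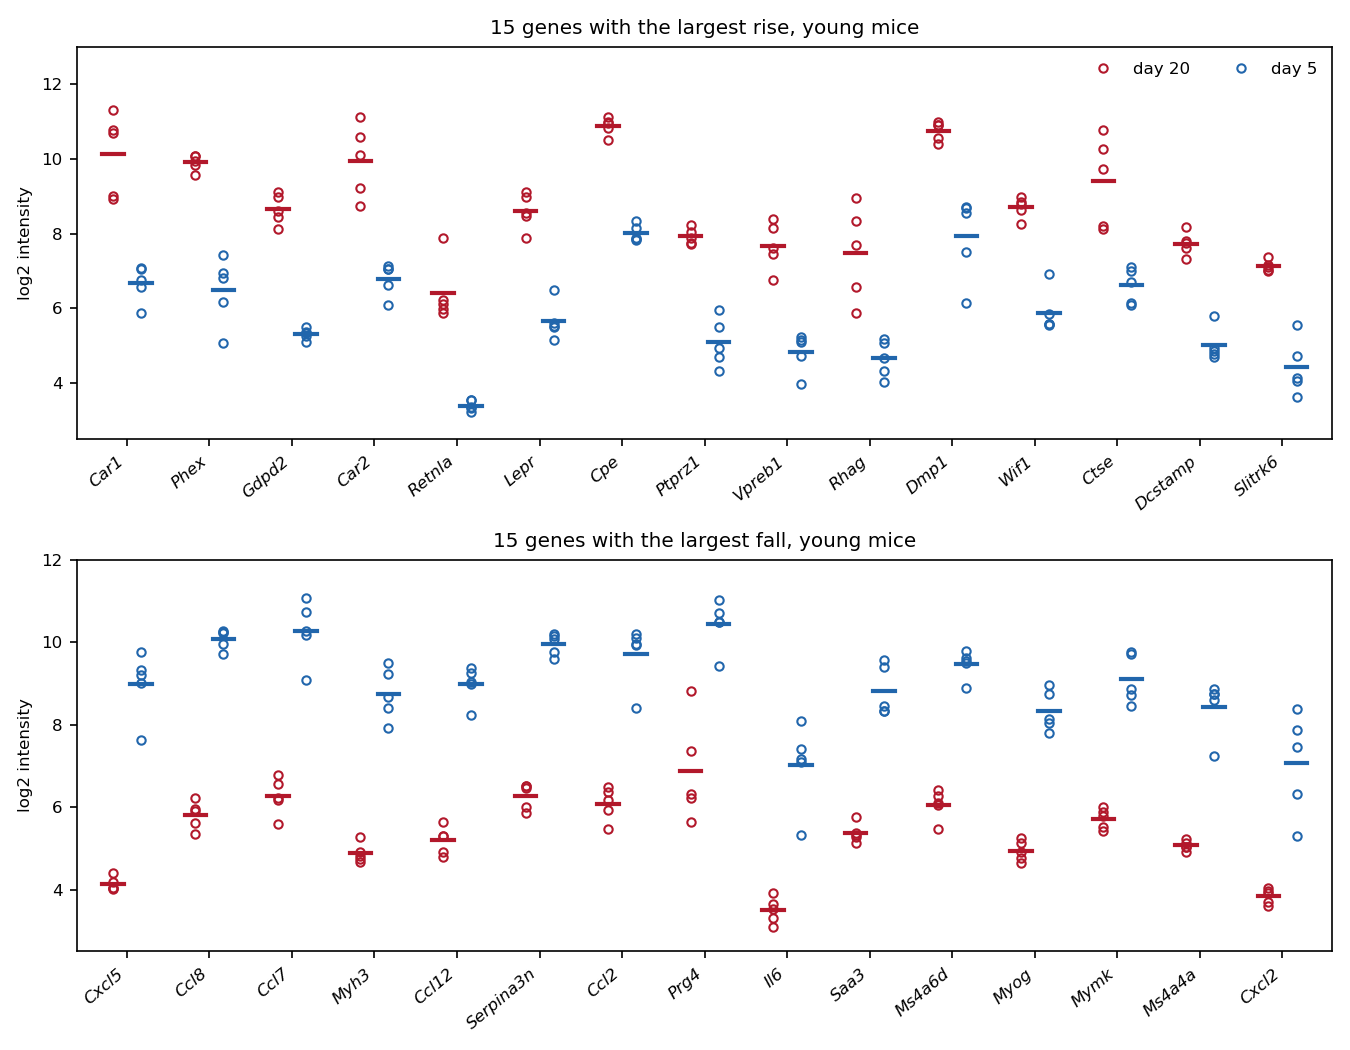
Log2 intensity of the 15 genes with the largest rise (upper panel) and the 15 with the largest fall (lower panel) in young mice, day 20 in red left of day 5 in blue, 1 circle an array (5 each) and a bar at the mean. Only genes whose groups do not overlap were eligible, so the absence of overlap was set by the choice. Car1, Car2, Rhag and Ctse spread widely at day 20.

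Inflammatory genes made up the deepest falls. Of 42 measured cytokine and mediator genes 24 were lower at day 20 and 1 was higher, and their median change was -0.96 beside 0.05 over all genes. Chemokines, which draw leukocytes into tissue, led with 11 of 13 lower. Cxcl5, a neutrophil attractant, had 4.05, 4.4, 4.18, 4.02 and 4.04 log2 units in the day 20 arrays, against 9.19, 9.32, 9.77, 9.0 and 7.63 in the day 5 arrays. The day 20 arrays were tightly grouped and all lay below the lowest day 5 array, replicate 5. The change of -4.85 ± 0.44 (adjusted p = 2.1e-10) made Cxcl5 28.7-fold lower, the deepest fall of any leading gene. Ccl8, a monocyte attractant, had 5.34, 5.95, 6.23, 5.90 and 5.62 in the day 20 arrays, against 10.22, 10.24, 10.26, 9.72 and 9.95 in the day 5 arrays. Its groups lay far apart with little spread in either, and the change was -4.27 ± 0.33 (adjusted p = 8.9e-12). Further monocyte attractants fell, Ccl7 by 4.0 ± 0.39, Ccl12 by 3.78 ± 0.25 and Ccl2 by 3.64 ± 0.34 on the log2 scale.

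Among 10 cytokines 3 were lower. Il6, which drives the acute-phase response, had 3.92, 3.64, 3.32, 3.52 and 3.09 in the day 20 arrays, against 7.41, 7.16, 8.09, 7.09 and 5.33 in the day 5 arrays. Replicate 5 was again the lowest day 5 array and still stood above every day 20 array. The change was -3.52 ± 0.44 (adjusted p = 1.2e-07), and the acute-phase gene Saa3 changed by -3.44 ± 0.34 (adjusted p = 1.2e-09). Tnf changed by -0.43 ± 0.20 (adjusted p = 0.1) and was not called. The member that rose was Tnfaip3, an inhibitor of NF-kB signalling (0.32 ± 0.12, adjusted p = 0.047), and its call was lost without any 1 of 8 arrays, all but replicate 5 of day 20 and replicate 1 of day 5, at changes of 0.27 to 0.33. With the naming series as a block 21 members were lower and none was higher.

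NF-kB is the transcription factor best known for switching on this class of genes. The motif GGANTTTCC on either strand lay between 250 bases before and 50 after the start of 5 of the 20 lower inflammatory genes that have a promoter in the RefSeq table (25%), against 392 of all 27025 genes with one (1.45%). The carriers were Cxcl1, Cxcl2, Cxcl3, Cxcl10 and Il6. The 150 bases before the start of Il6 (chr5:30012964-30013113, plus strand) and Cxcl2 (chr5:90903749-90903898, plus strand; RefSeq, GRCm38.p6) are shown 5′ to 3′ because both genes are among the 15 deepest falls, with the match in capitals. The match is a description of letters and says nothing of binding in these calluses.
Il6: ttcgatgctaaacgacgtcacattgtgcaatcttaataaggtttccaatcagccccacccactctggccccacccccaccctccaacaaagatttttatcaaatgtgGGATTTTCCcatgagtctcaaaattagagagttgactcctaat
Cxcl2: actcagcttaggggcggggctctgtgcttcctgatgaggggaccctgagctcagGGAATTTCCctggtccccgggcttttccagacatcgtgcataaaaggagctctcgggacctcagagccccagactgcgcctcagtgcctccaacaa

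Complement, the plasma cascade that tags and lyses targets, fell throughout. All 8 measured genes were lower and none of their groups overlapped. C1qa, which starts the classical pathway, had 7.0, 7.30, 7.26, 7.28 and 7.22 in the day 20 arrays, against 10.08, 9.78, 9.67, 10.31 and 9.85 in the day 5 arrays. Both groups were tight, and the change was -2.73 ± 0.28 (adjusted p = 2.6e-09). Its partners C1qb and C1qc changed by -2.16 ± 0.27 and -2.15 ± 0.23, the alternative-pathway gene Cfb by -2.08 ± 0.20, and the anaphylatoxin receptors C3ar1 and C5ar1 by -2.92 ± 0.23 and -2.07 ± 0.21. The smallest falls were of C4b (-0.87 ± 0.19) and C2 (-0.70 ± 0.15). With the series block 6 of the 8 were lower.

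Macrophage markers moved the same way. Of 19 measured 15 were lower with no overlap, none was higher, and the median change was -1.92. Cd163, the scavenger receptor for haemoglobin and haptoglobin, had 4.77, 4.47, 4.56, 4.63 and 4.63 in the day 20 arrays, against 7.46, 7.55, 7.66, 7.93 and 6.03 in the day 5 arrays. Replicate 5 of day 5 lay well below its group and above all of day 20, and the change was -2.71 ± 0.29 (adjusted p = 6.3e-09). Ms4a6d (-3.41 ± 0.31), Ms4a4a (-3.37 ± 0.24), the endotoxin co-receptor Cd14 (-2.19 ± 0.23), the scavenger receptor Msr1 (-2.18 ± 0.20) and the Fc receptor Fcgr1 (-2.17 ± 0.24) fell too. Not called were Marco (-0.22 ± 0.12), the growth factor receptor Csf1r (-0.23 ± 0.17) and Cd68 (-0.26 ± 0.26). Osteoclasts also express Csf1r and Cd68. The mean level of the list was 6.85 to 7.03 in the day 20 arrays and 8.15 to 8.74 in the day 5 arrays. In the series block 13 members were lower.

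Other immune groups moved less. Interferon response genes were lower in 8 of 15 (median -0.75), with Ifit1 at -1.43 ± 0.39 and Oas2 at -1.38 ± 0.28, and 2 of them were lower in the series block. Antigen-presenting MHC class II genes were lower in 2 of 6 (33.3% called, near the 27.3% of all genes), H2-Aa (-0.72 ± 0.21) and H2-DMa (-0.65 ± 0.23). The call of H2-DMa was lost without replicate 2 (-0.54) or 4 (-0.59) of day 20 or replicate 4 of day 5 (-0.56), and the series block left neither. Of 18 neutrophil genes 2 were lower and 1 higher (16.7% called, below the 27.3% of all genes), with a median of -0.05. None of the granule genes was called, from Mpo, the myeloperoxidase, at 0.57 ± 0.47 (adjusted p = 0.38) to Chil3 at -0.92 ± 0.44 (adjusted p = 0.12) and Lcn2 at -0.96 ± 0.45 (adjusted p = 0.11), although without day 20 replicate 5 Lcn2 (-1.35) and Chil3 (-1.25) were called, as Lcn2 was without day 20 replicate 3 (-1.24). The lower pair were the stefins Stfa2 (-1.74 ± 0.33) and Stfa3 (-1.12 ± 0.35), and Stfa3 was not called without day 20 replicate 4 (-0.96) or day 5 replicate 2 (-0.85). The higher gene was Mmp9, which osteoclasts also make.

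Muscle regeneration formed a separate fall. Of 11 genes of myoblast commitment, fusion and embryonic fibres 10 were lower, with a median of -1.74. Myog, the transcription factor of myoblast differentiation, had 5.14, 4.65, 5.26, 4.76 and 4.90 in the day 20 arrays, against 8.75, 8.05, 7.80, 8.96 and 8.13 in the day 5 arrays. Every day 5 array lay more than 2 units above every day 20 array, and the change was -3.40 ± 0.30 (adjusted p = 9.1e-11). Embryonic myosin Myh3 had 4.90, 4.67, 5.28, 4.81 and 4.74 in the day 20 arrays, against 9.49, 7.91, 8.39, 9.23 and 8.66 in the day 5 arrays. Day 5 varied over more than 1 unit and day 20 over less, and the change was -3.85 ± 0.35 (adjusted p = 2.4e-10). The fusion genes Mymk (-3.38 ± 0.29) and Mymx (-1.67 ± 0.16) and the muscle acetylcholine receptor subunit Chrna1 (-2.85 ± 0.29) and the fetal subunit Chrng (-1.74 ± 0.23) followed. Pax7, the satellite-cell factor, changed by -0.02 ± 0.10 (adjusted p = 0.89). The series block left 8 of the 10.

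Most genes of mature muscle were not called. Of 22 contractile and metabolic muscle genes 1 was lower and 1 higher (9.09% called, below the 27.3% of all genes), and the median was -0.09. The lower gene was the actin Acta1 (-0.77 ± 0.27, adjusted p = 0.029), and the higher the calcium buffer Pvalb (0.68 ± 0.22, adjusted p = 0.021). Acta1 was not called without replicate 1, 2 or 4 of day 20 or 1, 4 or 5 of day 5 (-0.51 to -0.74), nor Pvalb without replicate 3 or 5 of day 20 or 2 or 3 of day 5 (0.50 to 0.60). The mean level of this list ran from 8.40 to 10.36 in the day 20 arrays and from 8.94 to 9.94 in the day 5 arrays. The ranges of the 2 days overlapped.

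The E-box CAGCTG, a site of the myogenic factors that include Myog, lay in 2 of the 6 lower muscle-regeneration genes with a promoter in the table (33.3%), Chrna1 and Chrng, against 4944 of 27025 genes (18.3%). The stretch of Chrna1 shown here, 150 bases before its start (chr2:73580339-73580488, minus strand, GRCm38.p6), holds both of its matches in capitals, at 92 to 87 and 44 to 39 bases before the start.
Chrna1: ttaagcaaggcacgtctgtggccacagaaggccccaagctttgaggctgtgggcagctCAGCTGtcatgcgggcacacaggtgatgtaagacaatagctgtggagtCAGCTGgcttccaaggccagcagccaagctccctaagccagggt

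Bone-forming genes rose. Of 14 bone matrix and osteoblast genes 11 were higher and none was lower, with a median of 1.31. Col1a1, the main bone collagen, had 12.71, 12.73, 12.67, 12.79 and 12.40 in the day 20 arrays, against 11.13, 11.28, 11.40, 10.82 and 11.86 in the day 5 arrays. The groups did not overlap, replicate 5 being the highest of day 5, and the change was 1.36 ± 0.34 (adjusted p = 0.0028). Col1a2 changed by 0.97 ± 0.34 (adjusted p = 0.029), a call lost without replicate 2 or 4 of day 20 or any of replicates 1 to 4 of day 5 (0.89 to 0.95), and Col24a1 by 1.74 ± 0.22 (adjusted p = 1.2e-07). All 3 measured osteoblast transcription factors were higher: Dlx5 (1.73 ± 0.33), Sp7 (1.61 ± 0.35), without which no osteoblasts form, and Dlx3 (1.37 ± 0.25).

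Sp7 had 9.23, 9.44, 8.80, 8.98 and 8.77 in the day 20 arrays, against 6.95, 7.93, 7.66, 6.38 and 8.25 in the day 5 arrays. Day 5 spread more widely than day 20 and stayed below it. The matrix protein Mepe (1.77 ± 0.22), Ifitm5 (1.24 ± 0.37), the parathyroid hormone receptor Pth1r (1.21 ± 0.31) and the cadherin Cdh11 (1.46 ± 0.23) rose as well. Osteoadherin (Omd) rose by 1.26 ± 0.41, a call lost without replicate 1 (1.07) or 4 (1.01) of day 5. Ibsp (0.60 ± 0.29, adjusted p = 0.12), Sparc (0.11 ± 0.17) and Tmem119 (0.16 ± 0.29) were not called. Under the series block 3 of the 11 were called, and the median was 0.75.

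Of 10 mineralization genes 5 were higher and none was lower, with a median of 0.66. Phex, a protease of osteocytes whose loss causes phosphate wasting, had 10.08, 10.09, 9.56, 9.95 and 9.85 in the day 20 arrays, against 6.16, 6.94, 6.81, 5.08 and 7.43 in the day 5 arrays. The day 20 arrays spread over less than 1 unit and the day 5 arrays over more than 2, and the groups were 2.13 units apart at their nearest. The change of 3.42 ± 0.37 (adjusted p = 9.0e-09) made Phex 10.7-fold higher. All 3 phosphate enzymes were higher: Smpd3 (1.82 ± 0.34), Phospho1 (1.52 ± 0.28) and tissue-nonspecific alkaline phosphatase Alpl (1.24 ± 0.37), which was not called without day 5 replicate 4 (0.96, adjusted p = 0.057). The transporter Slc20a2 rose by 0.91 ± 0.17, while Ank (0.42 ± 0.21), Slc20a1 (-0.34 ± 0.19) and the inhibitors Mgp (-0.02 ± 0.16) and Ahsg (-0.05 ± 0.10) were not called. In the series-block fit 2 of the 5 higher genes were called.

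Osteocytes, the cells embedded in bone, were represented by 10 genes, 5 higher and 2 lower. Dmp1, a matrix protein of young osteocytes, had 10.91, 10.98, 10.55, 10.91 and 10.41 in the day 20 arrays, against 7.52, 8.56, 8.69, 6.15 and 8.71 in the day 5 arrays. Day 20 was uniform and day 5 spread over more than 2 units without reaching it, and the change was 2.82 ± 0.45 (adjusted p = 7.9e-06). Dkk1 (2.16 ± 0.29), the channel Kcnk2 (1.24 ± 0.12), Irx5 (1.00 ± 0.16) and Mef2c (0.83 ± 0.17) rose. Pdpn, which early osteocytes share with fibroblasts and other cells, fell by 1.87 ± 0.24, and Cd44, which leukocytes also carry, by 0.50 ± 0.15. The late osteocyte product Sost changed by 0.30 ± 0.13 (adjusted p = 0.08), and without day 5 replicate 5 it was called (0.41, adjusted p = 0.02). The phosphate hormone Fgf23 (-0.00 ± 0.10, adjusted p = 0.99) was not called. In the series-block fit 4 were higher and 1 lower, and Mef2c and Cd44 lost their calls.

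Osteoclast genes rose as a group. Of 18 measured 14 were higher and none was lower, with a median of 0.87. Dcstamp, needed for osteoclast fusion, had 7.75, 7.81, 7.31, 8.18 and 7.61 in the day 20 arrays, against 4.77, 4.94, 4.86, 4.70 and 5.78 in the day 5 arrays. Only replicate 5 of day 5 exceeded 5 units, and the groups stayed 1.53 units apart. The change was 2.72 ± 0.23 (adjusted p = 3.2e-11). The gelatinase Mmp9 had 10.91, 11.17, 10.79, 11.28 and 10.76 in the day 20 arrays, against 8.47, 8.54, 8.51, 7.84 and 9.78 in the day 5 arrays, and replicate 5 again stood above its group but below day 20 (2.36 ± 0.39, adjusted p = 1.4e-05).

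The integrin Itgb3 (2.24 ± 0.27), the receptor Oscar (2.14 ± 0.31), the proton pump subunit Atp6v0d2 (2.12 ± 0.36), cathepsin K (Ctsk, 1.56 ± 0.31) and the acid phosphatase Acp5 (1.15 ± 0.33) rose as well. The receptor for RANKL, Tnfrsf11a (0.37 ± 0.16, adjusted p = 0.084; 0.45 and called without day 20 replicate 1) and the transcription factor Nfatc1 (0.13 ± 0.17, adjusted p = 0.59) were not called. Of 7 genes that control osteoclasts 1 was higher and 2 were lower (42.9% called, beside 27.3% of all genes), with a median of -0.12. The lower 2 were a receptor (-1.26) and the inhibitor Sfrp1 (-2.90). The ligand RANKL (Tnfsf11) rose by 0.44 ± 0.15 (adjusted p = 0.028), a call lost without replicate 1 or 2 of day 20 or 1, 3 or 4 of day 5 (0.36 to 0.42). Its decoy Tnfrsf11b changed by 0.10 ± 0.18 (adjusted p = 0.73), and the ligands Csf1 (0.37 ± 0.17) and Il34 (-0.12 ± 0.12) were not called. With the series block 3 of the 14 were higher, and the median was 0.45.

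Cartilage genes gave a mixed picture. Of 27 matrix genes 5 were higher and 2 lower (25.9% called, near the 27.3% of all genes), and the median change was 0.07. Col2a1, the cartilage collagen, had 7.86, 8.16, 8.52, 8.13 and 7.18 in the day 20 arrays, against 6.49, 6.29, 6.65, 6.09 and 8.74 in the day 5 arrays. Replicate 5 of day 5 was the highest of all 10 arrays, so the groups overlapped, and the change was 1.12 ± 0.37 (adjusted p = 0.022), a call lost without replicate 3 of day 20 or 1, 2 or 4 of day 5 (0.93 to 1.03). Col11a2 (1.94 ± 0.26), Col11a1 (1.69 ± 0.37), chondroadherin (Chad, 1.97 ± 0.47) and Clec3a (2.19 ± 0.52) were the other rises. Both type XI collagen genes are also expressed by osteoblasts.

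Aggrecan (Acan), the main cartilage proteoglycan, had 7.49, 7.63, 7.95, 7.86 and 6.16 in the day 20 arrays, against 7.78, 7.70, 7.14, 6.71 and 9.64 in the day 5 arrays. The groups overlapped throughout and the change of -0.38 ± 0.50 (adjusted p = 0.62) was not called. Without replicate 5 of day 5 the change of Acan was 0.08, of the opposite sign. The master factor Sox9 fell by 1.00 ± 0.22 (adjusted p = 6.3e-04) and the lubricant Prg4 by 3.55 ± 0.42 (adjusted p = 4.6e-08). The mean level of the list was 7.48 in replicate 5 of day 5 and 6.10 to 6.45 in the other 4 day 5 arrays, beside 6.20 to 7.11 in the day 20 arrays. Without that replicate 6 genes were higher and 2 lower, with a median of 0.42, and without day 20 replicate 3 there were 4 higher and 4 lower. In the series-block fit 1 was higher and 2 lower, and Col2a1, Col11a1, Chad and Clec3a lost their calls.

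Genes of hypertrophic chondrocytes, the enlarged cells that calcify cartilage, were higher in 5 of 9, with a median of 1.24. Alpl, among the higher genes, is also counted in the mineralization list above, and Ibsp, not called, in the bone list. Col10a1, their collagen, had 8.62, 8.63, 8.17, 8.91 and 8.17 in the day 20 arrays, against 6.26, 5.94, 5.95, 6.11 and 8.39 in the day 5 arrays. Replicate 5 of day 5 alone reached the range of day 20, and the change over all arrays was 1.97 ± 0.38 (adjusted p = 1.6e-04). The collagenase Mmp13, which osteoblasts share, had 12, 11.99, 11.83, 12.06 and 12.01 in the day 20 arrays, against 9.72, 10.21, 9.97, 8.96 and 10.39 in the day 5 arrays, with no overlap (2.13 ± 0.29, adjusted p = 4.2e-07). Scin (1.40 ± 0.23) and the channel Panx3 (1.33 ± 0.42) rose, and Ihh, the signal of prehypertrophic cells, changed by 0.21 ± 0.19 (adjusted p = 0.43). Without day 5 replicate 4, 3 of the 9 were higher, and Panx3 (1.03) was not among them. The series block left 2.

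Both days flank the cartilage peak of the series. Col10a1 averaged 6.32, 6.53, 11.21 and 8.50 in young mice at days 0, 5, 10 and 20, and Acan 5.17, 7.79, 10.29 and 7.42. The cartilage list averaged 6.01, 6.52, 8.12 and 6.65 on the same days, so its day 20 and day 5 levels lay on either side of a higher day 10. Inflammatory, complement, macrophage and muscle-regeneration lists were instead highest at day 5, and bone, osteoclast, marrow-niche and endothelial lists highest at day 20. No test was made of the course over days.

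**Figure D2:**
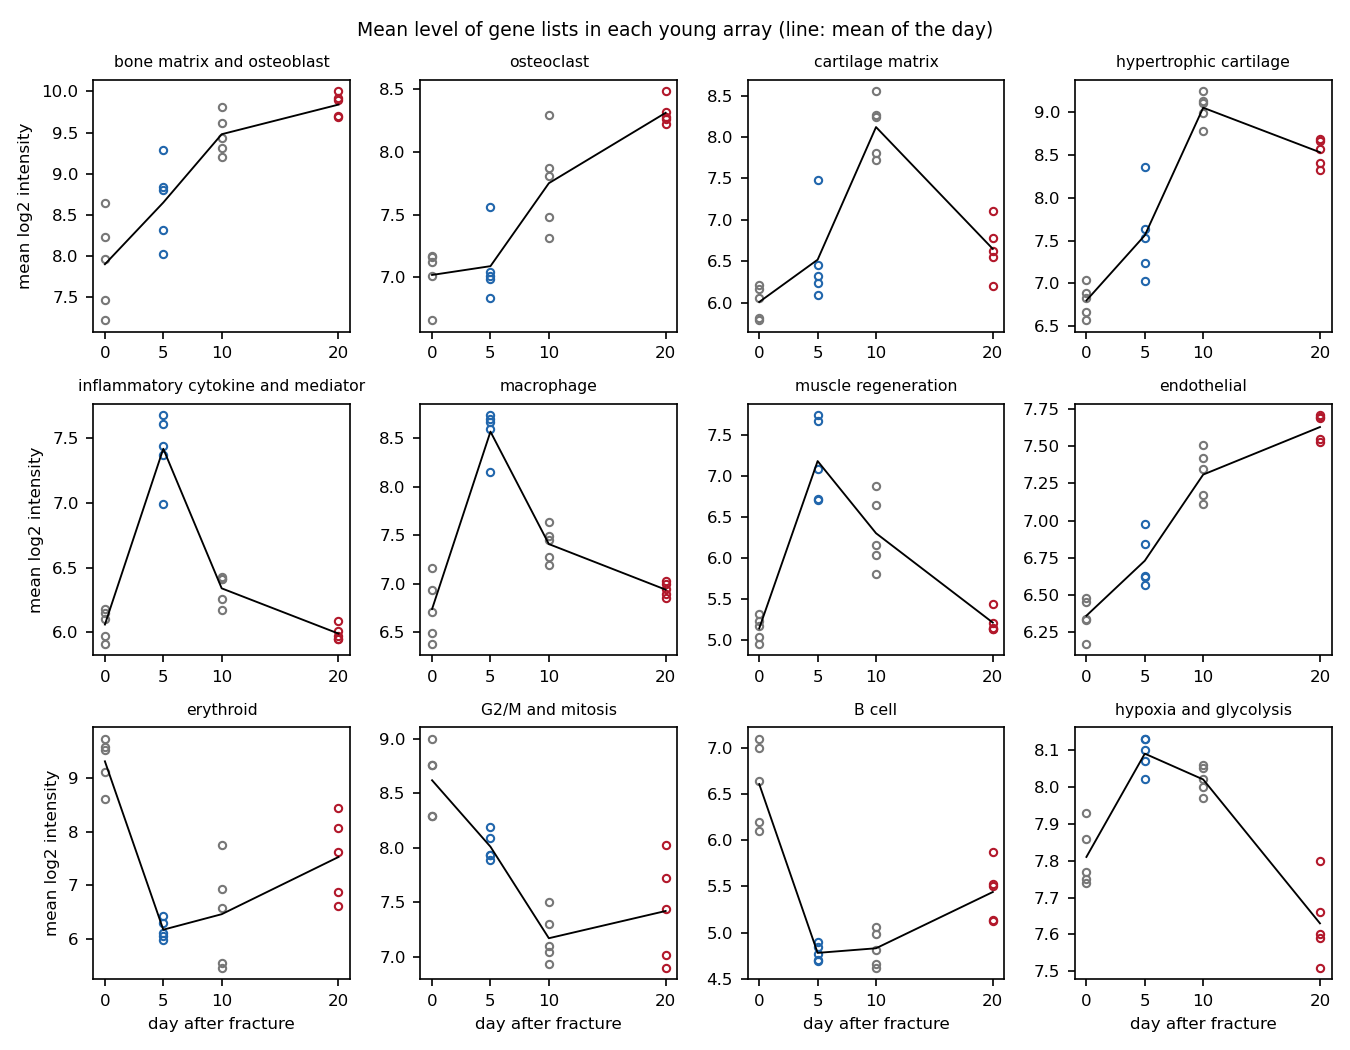
Mean log2 intensity of 12 gene lists in each young array against the day after fracture, with day 20 in red, day 5 in blue, other days in grey and a line through the means of the days. Cartilage peaks at day 10, the macrophage list at day 5 (8.57) and the osteoclast list at day 20 (8.31), and 1 day 5 array stands high in the cartilage panels.

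Of 26 fibrous matrix genes 6 were lower and 3 higher (34.6% called, beside 27.3% of all genes), with a median of -0.21. The falls were led by fibulin Fbln2, with 6.70, 6.58, 7.22, 6.67 and 6.45 in the day 20 arrays, against 9.13, 9.19, 9.42, 9.44 and 9.57 in the day 5 arrays. Neither group spread by as much as 1 unit and they lay 1.91 units apart at their nearest, with a change of -2.62 ± 0.22 (adjusted p = 3.2e-11). The thrombospondin Thbs4 (-1.98 ± 0.31), versican (Vcan, -1.43 ± 0.27) and Col14a1 (-1.16 ± 0.27) fell, and tenascin C (Tnc, 0.75 ± 0.22) rose. Col3a1, the collagen of early repair tissue, changed by -0.75 ± 0.30 (adjusted p = 0.059; -0.85 and called without day 20 replicate 3) and periostin (Postn) by -0.85 ± 0.33 (adjusted p = 0.05, just above the threshold). Leaving out any 1 of replicates 1 to 4 of either day left 1 higher and 4 to 6 lower. In the series block 2 were lower and none was higher, and the calls of Vcan, Col14a1 and Tnc were lost.

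Tendon markers were lower in 3 of 5, Thbs4, keratocan (Kera, -1.49 ± 0.39) and the factor Scx (-0.76 ± 0.22), while Tnmd changed by -0.64 ± 0.37 (adjusted p = 0.2), and in the series block Kera and Scx lost their calls. Contractile genes of myofibroblasts and smooth muscle fell, Acta2 by 2.16 ± 0.27 and Tagln by 1.25 ± 0.19, while the pericyte genes Rgs5 (0.73 ± 0.24) and Pdgfrb (0.57 ± 0.19) rose. Rgs5 was not called without day 20 replicate 4 (0.67) or day 5 replicate 2 (0.66), nor Pdgfrb without day 20 replicate 4 (0.53) or day 5 replicates 1 (0.50) or 3 (0.52). Of 17 genes of collagen processing 4 were higher and 3 lower (41.2% called, beside 27.3% of all genes). The crosslinking enzyme Loxl4 rose by 1.51 ± 0.31, whereas Loxl3 fell by 0.86 ± 0.21, Loxl1 by 0.68 ± 0.17 and the prolyl hydroxylase P4ha3 by 1.5 ± 0.24. The transcription factor Creb3l1, which raises collagen output in osteoblasts, was higher by 0.95 ± 0.31 (adjusted p = 0.019). Without day 5 replicate 1 it was not called (0.84), and 2 genes were higher in place of 4. Under the series block 2 were lower and none was higher.

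Of 20 matrix protease and inhibitor genes 5 were higher and 6 lower (55% called, beside 27.3% of all genes). The membrane metalloprotease Mmp16 had 8.90, 9.17, 8.65, 9.14 and 8.94 in the day 20 arrays, against 6.10, 6.60, 6.59, 5.78 and 7.01 in the day 5 arrays. All day 20 arrays lay above all day 5 arrays, with a change of 2.54 ± 0.29 (adjusted p = 1.7e-08). Stromelysin Mmp3 (-1.58 ± 0.23), Mmp19 (-1.42 ± 0.17), the aggrecanases Adamts1 (-0.90 ± 0.19) and Adamts5 (-0.79 ± 0.17) and the inhibitor Timp1 (-1.55 ± 0.29) fell. Timp4 (0.78 ± 0.23) and the membrane-bound inhibitor Reck (0.61 ± 0.16) rose. Under the series block 2 were higher and 4 lower, and Adamts1, Adamts5, Timp4 and Reck lost their calls.

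Vessel genes rose. Of 14 endothelial markers 12 were higher and none was lower, with a median of 0.86. Kdr, the main VEGF receptor, had 7.86, 7.48, 7.5, 7.90 and 7.76 in the day 20 arrays, against 5.69, 5.64, 6.02, 5.64 and 6.45 in the day 5 arrays. The groups were 1 unit apart at their nearest, with replicate 5 the highest of day 5, and the change was 1.82 ± 0.18 (adjusted p = 7.0e-10). Stab2, a scavenger receptor of sinusoidal endothelium, rose by 2.08 ± 0.26, the apelin receptor Aplnr by 1.62 ± 0.23, Emcn, a marker of bone capillaries, by 1.32 ± 0.18 and VE-cadherin (Cdh5) by 1.28 ± 0.17. E-selectin (Sele), which inflamed endothelium displays, changed by -0.11 ± 0.16 (adjusted p = 0.64). Among angiogenic ligands Vegfc (1.15 ± 0.16) and Pgf (0.88 ± 0.18) rose, Angptl4 fell by 1.56 ± 0.23, and Vegfa changed by 0.26 ± 0.16 (adjusted p = 0.23). In the series block 8 of the 12 endothelial genes were higher.

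Most marrow stromal genes were higher at day 20. Lepr, the leptin receptor that marks marrow stromal cells, had 8.98, 8.47, 7.88, 8.56 and 9.12 in the day 20 arrays, against 5.51, 5.53, 5.61, 5.14 and 6.49 in the day 5 arrays. The lowest day 20 array stood more than 1 unit above the highest day 5 array, and the change was 2.95 ± 0.25 (adjusted p = 3.3e-11). Of the 7 marrow-niche genes 5 were higher, Foxc1 by 2.28 ± 0.19, the stem cell factor Kitl by 1.34 ± 0.17, the chemokine Cxcl12 by 1.29 ± 0.16 and Ebf3 by 0.94 ± 0.14 beside Lepr, and the series block kept 5. The fat-lineage factor Pparg (1.74 ± 0.18), the lipase Lpl (1.90 ± 0.22), Plin1 (0.79 ± 0.23) and Fabp4 (0.72 ± 0.18) were the 4 of 9 adipocyte genes that rose, while adiponectin (Adipoq) changed by 0.43 ± 0.34 (adjusted p = 0.38). In the series block 2 adipocyte genes were higher, and Plin1 and Fabp4 were not among them. The marrow-niche list averaged 7.18, 6.92, 7.53 and 8.27 at days 0, 5, 10 and 20, and the adipocyte list 7.15, 7.20, 7.08 and 7.78.

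Red-cell genes rose with the widest spread. Of 17 measured 10 were higher and none was lower, with a median of 1.55. Car1, the red-cell carbonic anhydrase, had 10.69, 8.94, 10.77, 9.0 and 11.31 in the day 20 arrays, against 6.77, 6.56, 7.04, 7.08 and 5.88 in the day 5 arrays. Replicates 2 and 4 of day 20 were about 2 units below the other 3 and still above day 5, and the change was 3.47 ± 0.66 (adjusted p = 1.1e-04). Rhag (2.83 ± 0.67), the anion exchanger Slc4a1 (2.25 ± 0.67), Alas2, which starts haem synthesis (1.95 ± 0.38), and the regulator Klf1 (1.24 ± 0.36) rose, while Gata1 changed by 0.52 ± 0.33 (adjusted p = 0.26). Car1 averaged 11.58, 6.67, 7.22 and 10.14 at days 0, 5, 10 and 20. The series block left 1 of the 10.

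B-cell genes were higher in 4 of 15 and lower in 1 (33.3% called, near the 27.3% of all genes). The surrogate light chain Vpreb1 had 7.61, 6.76, 8.16, 7.46 and 8.40 in the day 20 arrays, against 4.73, 5.09, 5.24, 3.97 and 5.15 in the day 5 arrays. Its groups were 1.52 units apart, and the change was 2.84 ± 0.34 (adjusted p = 4.1e-08). Vpreb3 (1.46 ± 0.32), Igll1 (1.09 ± 0.25) and Cd79b (1.17 ± 0.32) rose with it. Rag2 was lower (-0.26 ± 0.10, adjusted p = 0.046), a call lost without any 1 of 8 arrays, all but replicate 5 of day 20 and replicate 2 of day 5 (-0.23 to -0.28). The mature B-cell marker Ms4a1 changed by 0.93 ± 0.39 (adjusted p = 0.069). With the series block 2 members were higher, and Cd79b and Igll1 were not among them. Of 7 platelet genes 2 were lower and none was higher (28.6% called, near the 27.3% of all genes), with a median of 0.02. Among them Pf4, which macrophages also express, was lower (-2.49 ± 0.29), and Ppbp changed by 0.27 ± 0.58 (adjusted p = 0.77).

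**Figure D3:**
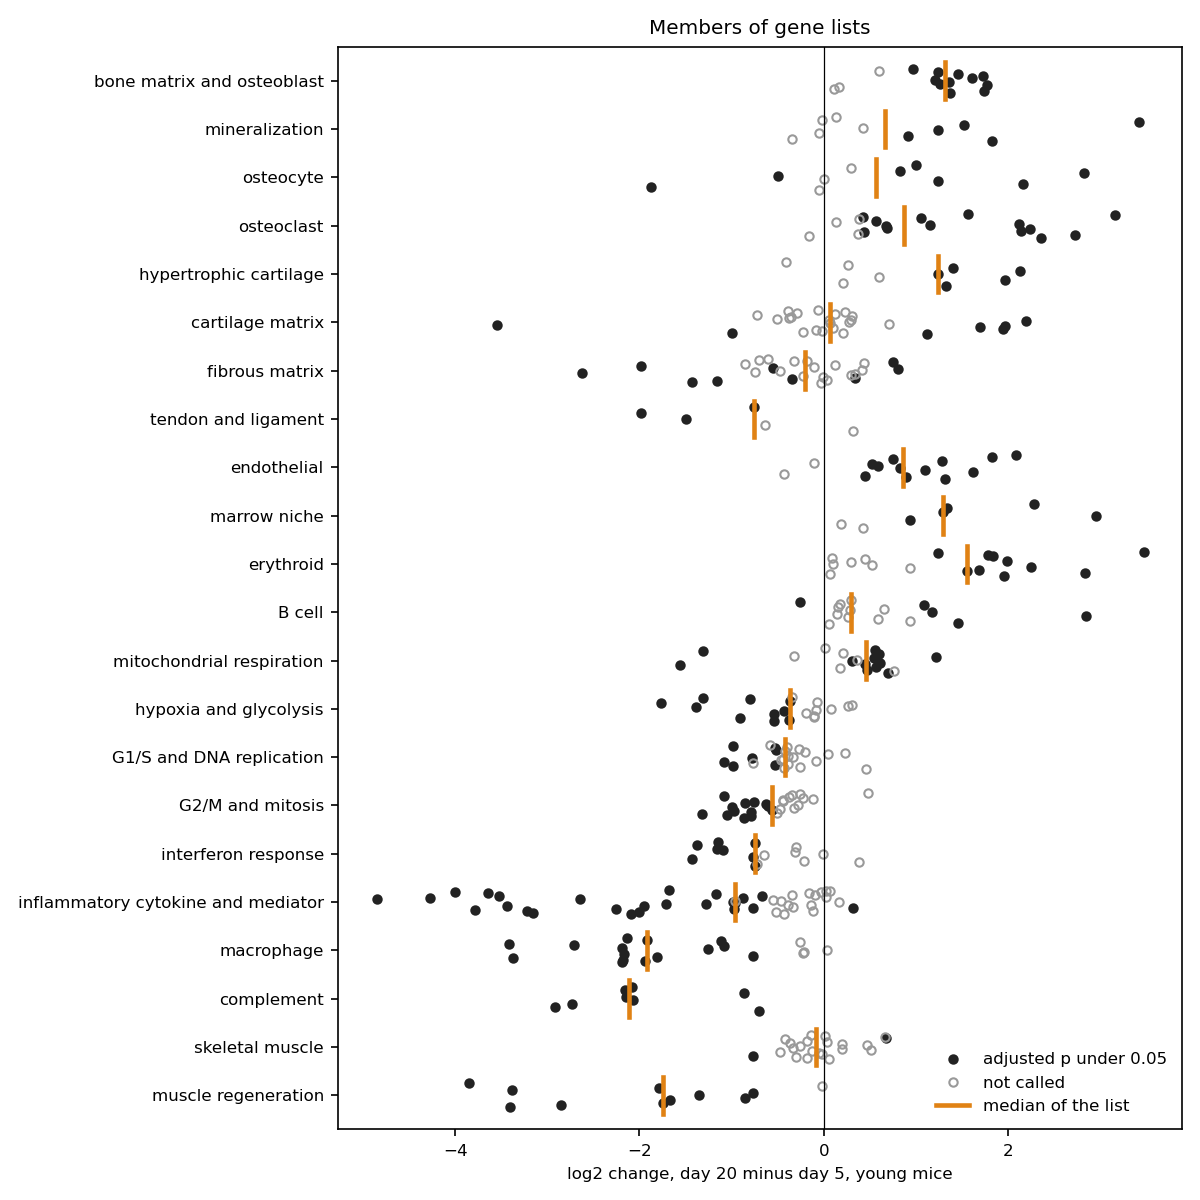
Log2 change (day 20 minus day 5, young mice) of each measured member of 22 gene lists, filled where the adjusted p was under 0.05 and open where not, with an orange bar at the median of the list. Complement, macrophage and muscle-regeneration genes lie to the left, bone, osteoclast, endothelial and erythroid genes to the right, and cartilage and skeletal muscle genes on both sides of 0.

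Cell-cycle genes fell in part. Of 25 G2/M and mitosis genes 13 were lower and none was higher (52% called, median -0.56). Of 24 genes of G1/S and DNA replication 7 were lower and none was higher (29.2% called, near the 27.3% of all genes, median -0.43). Cdk1, the kinase that starts mitosis, had 7.25, 7.05, 7.59, 7.46 and 8.13 in the day 20 arrays, against 8.67, 8.80, 8.68, 8.33 and 8.42 in the day 5 arrays. Replicate 5 of day 20 came within 0.20 of the lowest day 5 array, and the change was -1.08 ± 0.20 (adjusted p = 9.5e-05). Anillin (Anln, -1.32 ± 0.22), the kinesin Kif2c (-1.05 ± 0.21), the centromere histone Cenpa (-1.0 ± 0.24), Plk1 (-0.97 ± 0.26) and the replication genes Prim1 (-1.08 ± 0.30) and Gins2 (-0.98 ± 0.15) fell. The proliferation marker Mki67 changed by 0.48 ± 0.28 (adjusted p = 0.22).

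Across the day 20 arrays the cell-cycle lists moved with the red-cell list. The mean of the G2/M list was 7.44, 6.90, 7.72, 7.02 and 8.03 in day 20 replicates 1 to 5, and the mean of the erythroid list was 7.62, 6.62, 8.08, 6.88 and 8.44 in the same arrays. Both ran highest in replicate 5 and lowest in replicate 2, with the other 3 in the same order, and the part of marrow content in the change was not tested. In the day 5 arrays the G2/M list lay between 7.89 and 8.19 and the erythroid list between 5.97 and 6.43. Leaving out day 20 replicate 4 left 8 G2/M genes lower, and the series block left 4 of the 13 and 1 of the 7.

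The letters TTTGAA, the cell-cycle homology region, lay within 250 bases before to 50 after the start of 8 of the 10 lower G2/M genes with a promoter in the table (80%), against 5466 of 27025 genes (20.2%). In the 250 bases before the start alone they lay in 3 of the 10 (30%), against 18.3% of all genes. CCAAT, the NF-Y box, lay in 8 of 10 in the wider window (80%), against 41.1% of all genes. The 150 bases before the start of Cdk1 (chr10:69352913-69353062, minus strand, GRCm38.p6) are shown because its promoter holds both, with TTTGAA and ATTGG, which is CCAAT on the other strand, in capitals. Among the higher bone and mineralization genes the RUNX letters TGTGGT lay in 1 of 9 (11.1%), against 18.9% of all genes.
Cdk1: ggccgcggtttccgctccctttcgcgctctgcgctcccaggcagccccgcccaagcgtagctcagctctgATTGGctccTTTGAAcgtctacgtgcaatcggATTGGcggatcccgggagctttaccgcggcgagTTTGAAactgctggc

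Of 19 hypoxia and glycolysis genes 10 were lower, none was higher and 9 were not called. The glucose transporter Slc2a1 had 6.51, 6.55, 6.51, 6.84 and 6.53 in the day 20 arrays, against 7.63, 8.04, 8.20, 7.89 and 7.76 in the day 5 arrays. Both groups were narrow and did not overlap, and the change was -1.31 ± 0.15 (adjusted p = 2.4e-08). The oxygen sensor Egln3 (-1.77 ± 0.23), adrenomedullin (Adm, -1.39 ± 0.19), the glycolytic enzyme Pgam1 (-0.91 ± 0.19) and Hif1a itself (-0.80 ± 0.23) fell. Of 18 respiratory genes 10 were higher, among them Sdha (0.70 ± 0.13) and the coactivator Ppargc1a (1.22 ± 0.27), and 2 were lower, the muscle forms Cox8b (-1.56 ± 0.32) and Cox6a2 (-1.31 ± 0.34). The series block left 4 lower hypoxia genes and 2 higher respiratory genes.

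Wnt signalling, in which secreted ligands act through Frizzled and Lrp receptors and are checked by secreted inhibitors, had its largest single changes among the inhibitors. Of 32 Wnt genes 10 were higher and 5 lower (46.9% called, beside 27.3% of all genes). Of the 9 receptors 3 were higher and 3 lower, and of the 10 inhibitors 4 were higher and 2 lower. Wif1, which binds Wnt ligands, had 8.99, 8.62, 8.26, 8.86 and 8.80 in the day 20 arrays, against 5.57, 5.54, 5.84, 5.57 and 6.91 in the day 5 arrays. Sfrp1, another inhibitor that binds Wnt ligands, went the other way, with 6.34, 6.44, 6.72, 6.17 and 6.43 in the day 20 arrays, against 9.51, 9.32, 8.73, 9.0 and 10.04 in the day 5 arrays. Neither gene's groups overlapped, and the changes were 2.82 ± 0.34 (adjusted p = 5.6e-08) for Wif1 and -2.90 ± 0.37 (adjusted p = 1.5e-07) for Sfrp1.

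Dkk1 (2.16 ± 0.29) and Sfrp4 (0.89 ± 0.24) rose like Wif1, and Sfrp2 fell by 2.05 ± 0.33 like Sfrp1. Among receptors Lrp4 (1.63 ± 0.21), the bone partner of sclerostin, rose and Fzd2 fell by 1.21 ± 0.20. Of the ligands Wnt5b rose by 0.85 ± 0.17. Of 4 measured Wnt targets, with changes of -0.03 to 0.45, 1 was higher (25% called, near the 27.3% of all genes). Axin2 (0.22 ± 0.13, adjusted p = 0.23) and Lef1 (0.23 ± 0.16, adjusted p = 0.31) were among the 3 not called. With the series block 4 Wnt genes were higher and 4 lower.

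BMP and TGF beta genes are a family of bone and cartilage inducers with their receptors and inhibitors. They were higher in 11 of 30 and lower in 2 (43.3% called, beside 27.3% of all genes). The 5 ligands that rose were all BMPs: Bmp3 (1.05 ± 0.23), Bmp7 (0.92 ± 0.14), Bmp2 (0.82 ± 0.17), Bmp4 (0.70 ± 0.22) and Bmp6 (0.67 ± 0.16). Bmp4 was not called without day 5 replicate 2 (0.59). Inhba, the activin A subunit, had 5.48, 6.25, 5.80, 6.36 and 5.86 in the day 20 arrays, against 7.86, 8.52, 8.15, 7.18 and 8.68 in the day 5 arrays. It was the ligand that fell, without overlap, by 2.13 ± 0.24 (adjusted p = 2.1e-08). The receptors Tgfbr1 (1.28 ± 0.15) and Bmpr2 (0.77 ± 0.13), the secreted inhibitor Grem1 (1.36 ± 0.18) and the inhibitory Smad6 (1.06 ± 0.15) and Smad7 (0.50 ± 0.16) rose, Smad7 being not called without day 20 replicate 4 (0.44) or day 5 replicate 1 (0.46). Of 4 Id target genes Id4 rose by 1.37 ± 0.14 and Id1 fell by 0.35 ± 0.12, a call lost without replicate 2, 3 or 5 of either day (-0.29 to -0.35). Id2 (0.00 ± 0.12) and Id3 (0.58 ± 0.24) were not called, although Id3 was without day 5 replicate 5 (0.70). The series block left 6 higher and 1 lower.

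**Figure D4:**
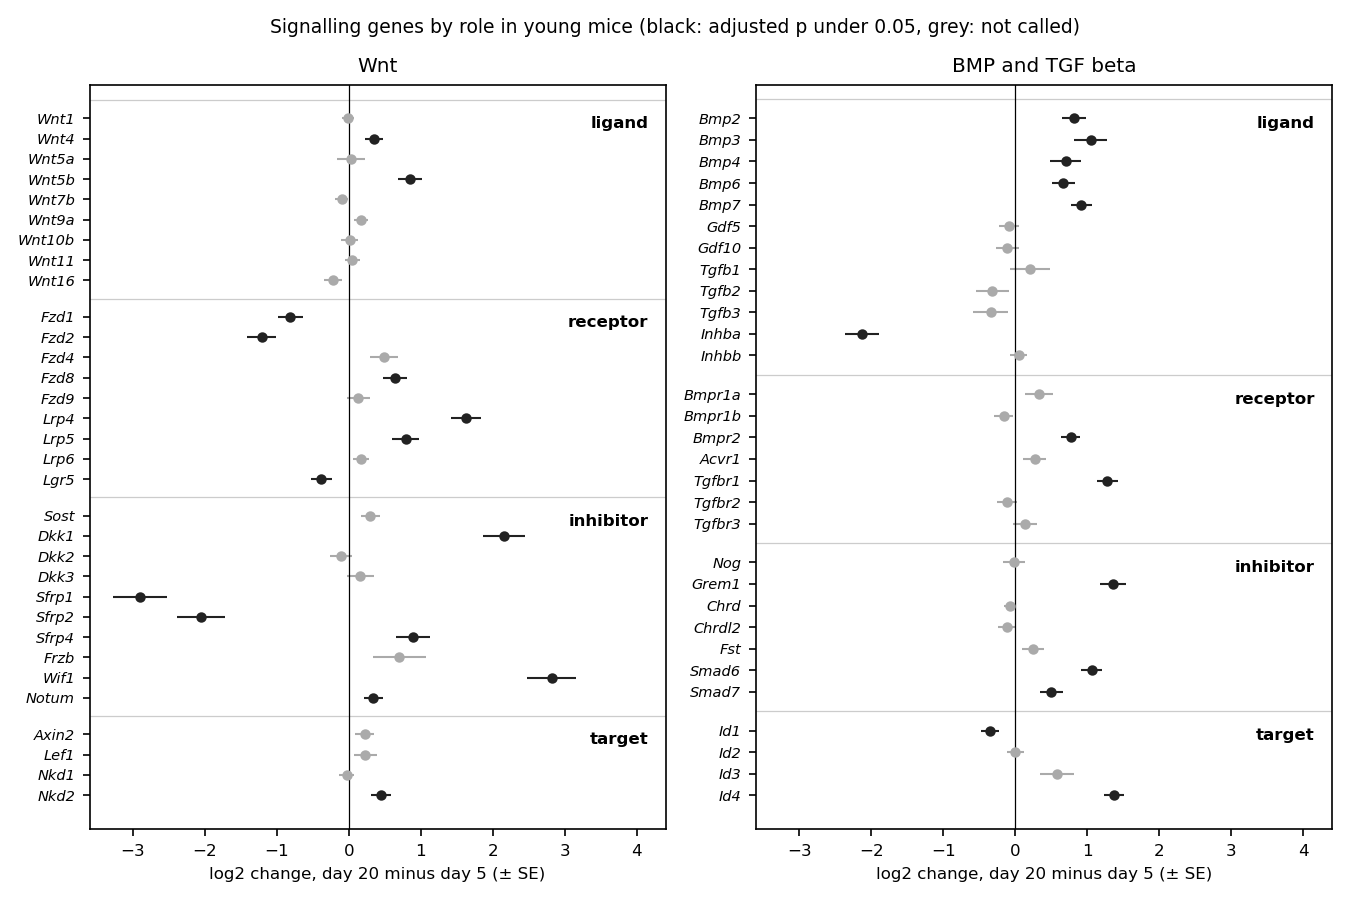
Log2 change (day 20 minus day 5, young mice, ± SE) of each measured Wnt (left) and BMP and TGF beta (right) gene, grouped by role, black where the adjusted p was under 0.05 and grey where not. Wnt inhibitors run from Sfrp1 at -2.90 to Wif1 at 2.82, and the 5 BMP ligands stand right of 0 with Inhba far left.

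Of 9 hedgehog genes 1 was higher (11.1% called, below the 27.3% of all genes), the transducer Smo (0.46 ± 0.17, adjusted p = 0.044). The Gli transcription factors Gli1 (0.16 ± 0.13), Gli2 (0.42 ± 0.18) and Gli3 (-0.06 ± 0.20) were not called. Smo was not called without any 1 of replicates 1 to 4 of either day (0.41 to 0.49), and without day 5 replicate 5, 3 hedgehog genes were higher, Gli2 (0.51) among them. Of 12 early-response genes 4 were lower and 8 were not called (33.3% called, near the 27.3% of all genes), with a median of -0.30. Among the lower genes Ier3 fell by 2.33 ± 0.21 and Myc by 1.11 ± 0.21. Of 14 stress genes of the endoplasmic reticulum 2 were higher and 3 lower (35.7% called, beside 27.3% of all genes). Hspa5 was lower (-0.52 ± 0.12) and Atf4 higher (0.42 ± 0.07) at day 20. No epidermal marker was called among 6, with changes from -0.08 to 0.35.

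The same step in old mice, 5 arrays at day 20 and 5 at day 5, was set beside the young step. Young and old mice share no arrays in this comparison, but their sample names split by day in a similar way. Old day 20 names begin with a number, and old day 5 names begin with H except that of replicate 1. Naming series and day are thus tied in young mice and nearly tied in old mice. The part of the series in the direction shared by both ages was not tested. In old mice 3434 genes were called (17.2%). Of the 5436 genes called in young mice 92% changed in the same direction in old mice and 40.6% were also called there in that direction. Those made up 64.3% of the genes called in old mice. All 30 leading genes were called in old mice in the same direction, and the change was smaller there for 28 of them, a description only, since they were chosen for their size in young mice. Ccl8, for instance, changed by -4.27 ± 0.33 in young mice and -2.25 ± 0.33 in old mice, with a difference of -2.02 (adjusted p = 0.15 for the difference, and 0.0073 in a fit of the 4 compared groups alone).

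The difference between the ages itself was called for 1 gene (0.00502% of all genes), Asrgl1, an asparaginase-like enzyme, while 2247 genes had an unadjusted p under 0.05. Leaving out 1 array of the 20 gave 1 to 30 such genes, the most without replicate 1 of old day 5 (30), replicate 1 of old day 20 (16) or replicate 2 of old day 5 (11). Asrgl1 had 7.92, 7.56, 7.67, 7.55 and 7.70 in young day 20 arrays, against 6.79, 6.71, 6.74, 7.10 and 7.09 in young day 5 arrays. The groups did not overlap, and the change was 0.79 ± 0.11 (adjusted p = 8.1e-07). In old mice its means were 7.45 ± 0.08 at day 20 and 7.70 ± 0.36 at day 5 (SD, n = 5 each), a change of -0.25 ± 0.11, and the difference of the changes was 1.04 ± 0.16 (limma adjusted p = 0.0014). In a fit of the 4 compared groups alone the difference of Asrgl1 was not called (adjusted p = 0.21), and Ccl8 was the 1 gene called. Cdk1 changed by -1.08 ± 0.20 in young mice and by -0.28 ± 0.20 in old mice, and the difference of -0.81 was not called (adjusted p = 0.26).

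**Figure D5:**
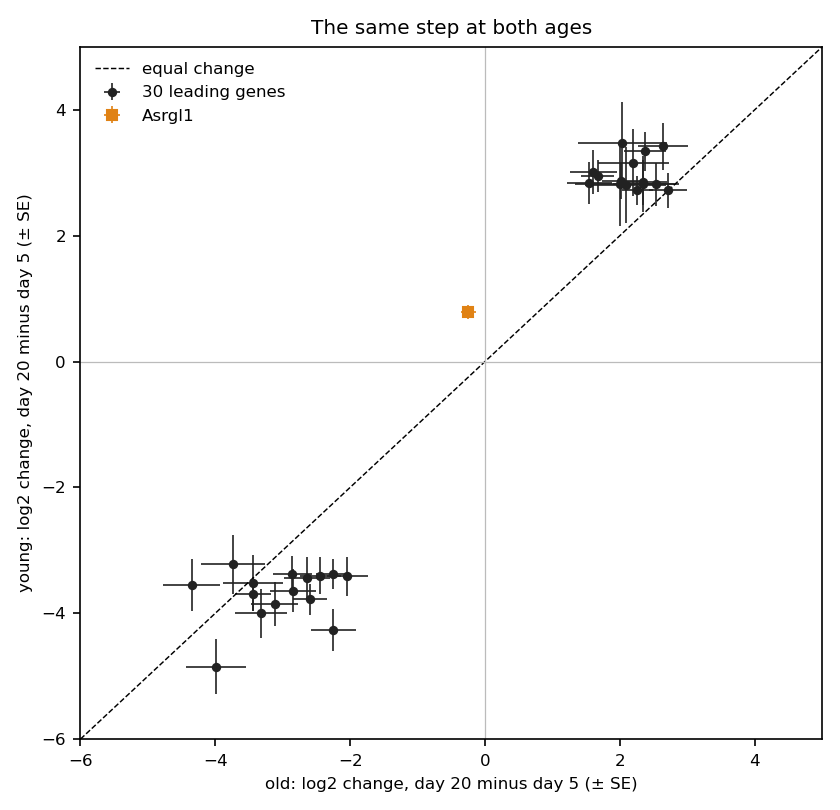
Log2 change from day 5 to day 20 in young mice (vertical) against that in old mice (horizontal), with SE, for the 30 leading genes and Asrgl1 (orange square), and a dashed line of equal change. All 30 lie in the quadrants of equal direction, and Asrgl1 lies at 0.79 in young and -0.25 in old mice.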

How the data were processed

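RNA of bone and callus was hybridised to Affymetrix Mouse Gene 1.0 ST arrays, per the labels. The values analysed are the log2 intensities the authors deposited, 41 arrays by 28815 probe sets, with array medians of 5.374 to 5.483. Partek is named in the submitters' processing notes. Their background correction and normalization are not stated in the labels. The deposited table also holds the authors' p-values, ratios and signed fold changes for contrasts with day 0 and between ages, and F scores. None is of day 20 against day 5, so none entered a test, and the authors' ratios matched the group means within 7e-05 log2 units.

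Of the probe sets 21782 carry 1 gene in the platform annotation, 1598 several and 5435 are unlisted here. For the 999 genes with several probe sets the brightest was kept, leaving 19938 genes. limma 3.58.1 (R 4.3.3) was fitted to 8 group means over all 41 arrays (33 residual degrees of freedom, prior 4.07), with Benjamini-Hochberg adjustment within each contrast and a threshold of 0.05. The fit was tested on simulated data. Tables were made in pandas 2.3.3 with numpy 2.4.6, figures with matplotlib 3.10.9 under Python 3.11.15, and scipy 1.17.1 gave the quantiles of confidence intervals. Each array is a separate mouse.

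The members and lists were chosen with earlier results of these data known. There were 44 lists with 607 of 652 genes measured, and unmatched list genes were not analysed here. Named genes were drawn from the 15 highest and 15 lowest called without overlap (predicted, Rik and LOC genes skipped). Genes called in the age difference were added. From each list they were drawn from up to 8 called by size, up to 3 not called by smallest p, and all members of roles with up to 8. Not every gene this allows is named, and some lists have no member named. Bmp4, Bmp6, Cxcl1, Cxcl3, Cxcl10, Mki67, Tnfaip3 and the miR-181 genes were chosen after their values were seen. Alternatives were quantile normalization, median centring, filters on dim genes, averaged or separate probe sets, and an unmoderated ANOVA over all 41 arrays. Others were trended and robust moderation, array weights, a replicate block, the naming series as a block, a 2-fold minimum and leaving out each array. A further fit held the compared groups alone, the 2 days of young mice for the day contrast and 4 groups for the age difference. The list counts under both blocks were added after the data were seen. Deviations of same-numbered arrays of the 2 days correlated at -0.17 to -0.01, so the numbers do not pair the samples.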

Additional observations from a re-analysis of the deposited data

Results flagged for a closer look

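In 41 cases a named gene had 1 array far from the other 4 of its group, by a gap that chance exceeds in about 1 group in 20. With 228 named genes checked in both groups, a number of such gaps arise by chance. Over all genes, each day 20 array was this far out in 0.933% to 1.26% of genes. The share was 2.71% for replicate 5 of day 5 and 0.707% to 1.06% for the other day 5 arrays. Most of the 41 cases lay in replicate 5 of day 5. That array was far above its group in Col10a1 (8.39), Col2a1 (8.74), Clec3a (7.21), Col11a2 (7.85), Scin (5.23), Mgp (11.43), Col1a2 (12.09), Col14a1 (8.69), P4ha3 (8.09), Dcstamp (5.78), Oscar (6.60), Wif1 (6.91), Fzd2 (7.98), Smo (7.31), Reck (6.85), Tagln (7.81), Pgam1 (9.42) and C4b (7.63). It was far below its group in Ccl2 (8.39), Cxcl1 (5.84), Cd163 (6.03), Ms4a4a (7.24), Csf1r (8.69) and Tnfrsf11a (5.91). The raised genes include cartilage collagens and osteoclast genes, and the lowered ones monocyte and macrophage genes, and no label or value checks independently that this array is a day 5 callus.

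The other day 5 arrays had 5 such values. Replicate 4 was far below its group in Adipoq (6.40) and far above it in H2-DMa (7.17), replicate 2 was far above in Hspa5 (10.63) and Id2 (8.45), and replicate 1 in Tnf (6.01).

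At day 20, replicate 5 was far below its group in Acan (6.16), Mmp19 (5.92) and Sfrp4 (9.85). Replicate 1 was far below in C1qa (7.0) and Mef2c (9.30) and far above in Reck (7.28) and Mir181b-1 (5.37). Replicate 3 was far above in Kera (7.15), Thbs4 (9.58) and Retnla (7.88), of which Kera and Thbs4 are tendon genes. Replicate 4 was far above in Slc2a1 (6.84) and Gli2 (5.85).

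Asrgl1 was the gene whose change differed between young and old mice by a test of the difference itself, which was 1.04 on the log2 scale (limma adjusted p = 0.0014). That call was lost in a fit of the 4 compared groups alone (adjusted p = 0.21).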

How the results depend on the processing

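The count of 5436 called genes fell to 1550 with the naming series as a block, to 3567 without the 9969 dimmer genes and to 822 with a 2-fold minimum, and was 4612 to 5348 when each array was left out in turn. Under the other settings it was 5148 with quantile normalization, 5181 with median centring, 6449 with array weights and 7603 over all probe sets. The share of calls that were higher was 57.9%, against 51.7% with quantile normalization and 47.4% without the dimmer genes, 1691 higher and 1876 lower. The single age difference became 2 genes with quantile normalization, 4 over all probe sets and 1 to 30 when each array was left out. In a fit of the 4 compared groups alone it was 1 gene again, but Ccl8 (-2.02, adjusted p = 0.0073) in place of Asrgl1 (adjusted p = 0.21), and Asrgl1 was called under every other setting run.

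A replicate block, which pairs arrays by number, gave 5325 called genes and 1 age difference. No called named gene changed direction under any alternative run, while 12 named genes that were not called did under at least 1, among them Acan, at 0.08 without day 5 replicate 5 against -0.38 with it. Of 187 named genes that were called 78 lost their call in the series block, and its cause was not tested, since series and day cannot be told apart within young mice. Dim probe sets limit the smallest changes.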

Other observations

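MicroRNA loci were not among the lists. Of 272 measured microRNA genes 42 were higher and 8 lower at day 20 (18.4% called, against 27.3% of all genes), and 3 changed by at least 2-fold. These probe sets read the precursor locus and not the mature strand. The miR-181 family, chosen after its values were seen, has 6 genes that share 1 seed, bases 2 to 8, in capitals below, and 3 were higher. The mature sequences (RefSeq, GRCm38.p6) are given 5′ to 3′ to show the shared seed.
miR-181a-5p: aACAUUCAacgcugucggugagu
miR-181b-5p: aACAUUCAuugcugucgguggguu
miR-181c-5p: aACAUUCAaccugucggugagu
miR-181d-5p: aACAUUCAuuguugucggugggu

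Mir181b-2 had 7.25, 6.59, 7.09, 7.28 and 6.81 log2 units in the day 20 arrays, against 5.24, 5.91, 5.00, 5.34 and 5.54 in the day 5 arrays. The groups did not overlap, and the change was 1.60 ± 0.28 (limma adjusted p = 4.7e-05). Mir181b-1 (0.85 ± 0.18) and Mir181a-1 (0.49 ± 0.12) were the other rises. Mir181b-1 overlapped between the days, and the groups of Mir181a-1 met, with a gap of 0.00. Both were dim, with day 20 and day 5 means of 4.49 and 3.63 for Mir181b-1 and 3.83 and 3.34 for Mir181a-1. These lie below the array medians of 5.374 to 5.483.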
